A study of Mus musculus with 48 samples.

Results

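Collagen genes were chosen by name, as the symbols made of Col, a type number, the letter a and a chain number. Of the 47480 symbols in the count tables, 44 had this form, and the 33 with a mean count of 10 or more over all 48 libraries are described here. The members nearest the limit were Col4a6 and Col2a1, with mean counts of 10.2 and 11.6. Just under it lay Col22a1 and Col4a4, with 8.44 and 8.08. Below these were Col15a1, Col9a3, Col4a3, Col6a4, Col20a1, Col6a5, Col9a2 and Col6a6, and Col9a1 was listed at 0 in every library. The limit was set on the mean over both stages, so a gene read in 1 stage alone entered through that stage. Counts of members between the stages are therefore a description of the set.

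The libraries came from C2C12, a mouse skeletal myoblast line, as proliferating myoblasts or as differentiated cells. Cells of each stage were stretched for 1, 3 or 6 h on flexible plates coated with collagen I, or stayed non-stretched on the same kind of plate for the same time. This gives 12 groups of 4 libraries, with 24 libraries in each stage. No allele or drug distinguished the groups. Myoblasts were kept in fetal bovine serum, whereas the differentiated cells had been moved to a medium with a smaller share of serum, from horse. The stages also differed in plating density and days in culture. Libraries were made with a stranded mRNA kit, and the tables held between 48447318 and 77080730 counts per library.

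Sample titles carry an experiment code. In myoblasts, replicates 7 and 8 were from experiment B27 and replicates 9 and 10 from B31. The title of stretched myoblast replicate 9 at 1 h reads B231, while its deposited counts are headed B31. It was taken as B31. In differentiated cells, replicates 7 and 8 were from B25 and replicates 9 and 10 from B28, apart from stretched replicate 4 at 1 h, the only library of B17. No experiment held both stages, so stage and experiment cannot be told apart. The study's methods call the experiments independent and the samples of an experiment separate. For differentiated cells they give a pair of samples to 1 experiment and a single sample to each of the others. The titles show that layout only for stretched cells at 1 h, and the titles were followed in every fit by experiment. Neither the methods nor the labels say that libraries of the same experiment were separate cultures. The p-values measure the spread between these libraries, part of which may be technical. In bulk RNA, fewer cells of a type and less RNA per cell cannot be told apart either.

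Markers of differentiation and of proliferation followed the labelled stages, and those of myoblasts and satellite cells did so in part. The 12 myogenic differentiation markers summed to 754 to 945 CPM (counts-per-million units, on the effective library size) in myoblast libraries and to 20157 to 29657 CPM in differentiated ones, while the 6 proliferation markers summed to 1743 to 2127 and 253 to 720 CPM. The 5 myoblast and satellite cell markers summed to 303 to 448 CPM in myoblasts and 216 to 277 CPM in differentiated cells. Of these, Myf5, Id1 and Id3 were lower in differentiated cells. Myod1 (means of 103 and 160 CPM) and Pax7 (26.9 and 32.7 CPM) were higher there. Markers of other connective tissue cells were present in part. Of 7 fibroblast and tendon markers, 2 exceeded 1 CPM in either stage, with summed levels of 62.3 to 78.5 CPM in myoblasts and 179 to 260 CPM in differentiated cells, and Tcf21 was at 0 throughout. The osteoblast sum was 79.2 to 105 and 37.5 to 68.6 CPM and the chondrocyte sum 141 to 164 and 58.3 to 102 CPM, with 1 of 5 markers above 1 CPM in each list and stage. These were Runx2, at a mean of 90.3 and 48.2 CPM, and Sox9, at 151 and 71.2 CPM. Each of these sums is therefore nearly that of a single gene. Beside the stretch results, only lists whose sums did not overlap between treatments are named. Endothelial markers summed to at most 0.995 CPM and adipocyte markers to at most 0.0494 CPM. The part of these markers in the results was not tested.

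Collagens are secreted or membrane-bound proteins in which alpha chains wind into a common helix. Fibrillar types I, III and V build the fibrils of muscle connective tissue, type IV forms the sheet of the basement membrane around each muscle fibre, and type VI forms beaded filaments that tie that sheet to the fibrils. Loss of type VI chains causes congenital muscular dystrophy in people. FACIT types such as XII, XIV and XVI decorate fibrils, multiplexin XVIII sits in basement membranes, and types XIII, XVII, XXIII and XXV span the cell membrane.

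Collagen transcripts were more abundant in differentiated cells than in myoblasts, and the balance of types shifted toward fibrillar chains and away from Col18a1. The 33 members together took 0.490% ± 0.0303 of all counts in non-stretched myoblasts and 0.707% ± 0.0453 in non-stretched differentiated cells (SD, n = 12 each), with ranges of 0.451 to 0.531% and 0.645 to 0.781% that do not overlap. With the times pooled, stretched libraries lay close by, at 0.472% ± 0.0263 and 0.70% ± 0.0773 (n = 12 each). The latter mean includes 0.8538% in stretched replicate 4 at 1 h. In differentiated cells at 6 h, replicates 7 to 10 were at 0.6889, 0.6989, 0.6733 and 0.7053% without stretching. With stretching they were at 0.5965, 0.6138, 0.7136 and 0.6363%. To compare chains with one another, CPM were divided by the length in kilobases of the gene's principal transcript. On this per-kilobase scale the 11 fibrillar chains made up 60.4% ± 1.05 of all collagen in non-stretched myoblasts and 72.8% ± 0.593 in differentiated cells. The 4 basement membrane chains made up 13.5% ± 0.815 and 9.06% ± 0.47, the 3 type VI chains 8.66% ± 0.722 and 9.11% ± 0.825, and Col18a1 12.8% ± 0.598 and 3.62% ± 0.219. The 4 transmembrane types stayed a minor fraction, at 0.136% ± 0.012 and 0.599% ± 0.0723.

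Per kilobase, the leading chain of both stages was Col3a1, the chain of type III collagen, at 209.7 ± 12.2 CPM per kb in myoblasts and 409 ± 19.8 in differentiated cells. The next places among myoblasts were taken by Col1a2 of type I (146 ± 7.93 CPM per kb), Col18a1 (100.2 ± 7.72), Col5a2 of type V (62.7 ± 3.33) and Col6a3 of type VI (58.01 ± 7.12). The ranges of Col5a2 and Col6a3 overlapped, as did those of Col6a3 and the next gene, Col4a1 (57.5 ± 4.21). In differentiated cells the order was Col3a1, Col1a2 (181 ± 15.3 CPM per kb), Col5a2 (123 ± 11.6), Col5a1 (82.0 ± 5.55) and Col4a1 (57.5 ± 5.81). Each of the first 4 lay wholly above the next, whereas Col4a1 overlapped with Col6a1 (55.5 ± 3.33) behind it. With the merged length of all annotated exons in place of the principal transcript, Col3a1 still led in both stages but most other places moved. In myoblasts the order became Col3a1, Col18a1, Col1a2, Col4a1 and Col4a2, with Col5a2 going from place 4 to 7. In differentiated cells it became Col3a1, Col5a2, Col5a1, Col1a2 and Col6a1.

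**Figure D1:**
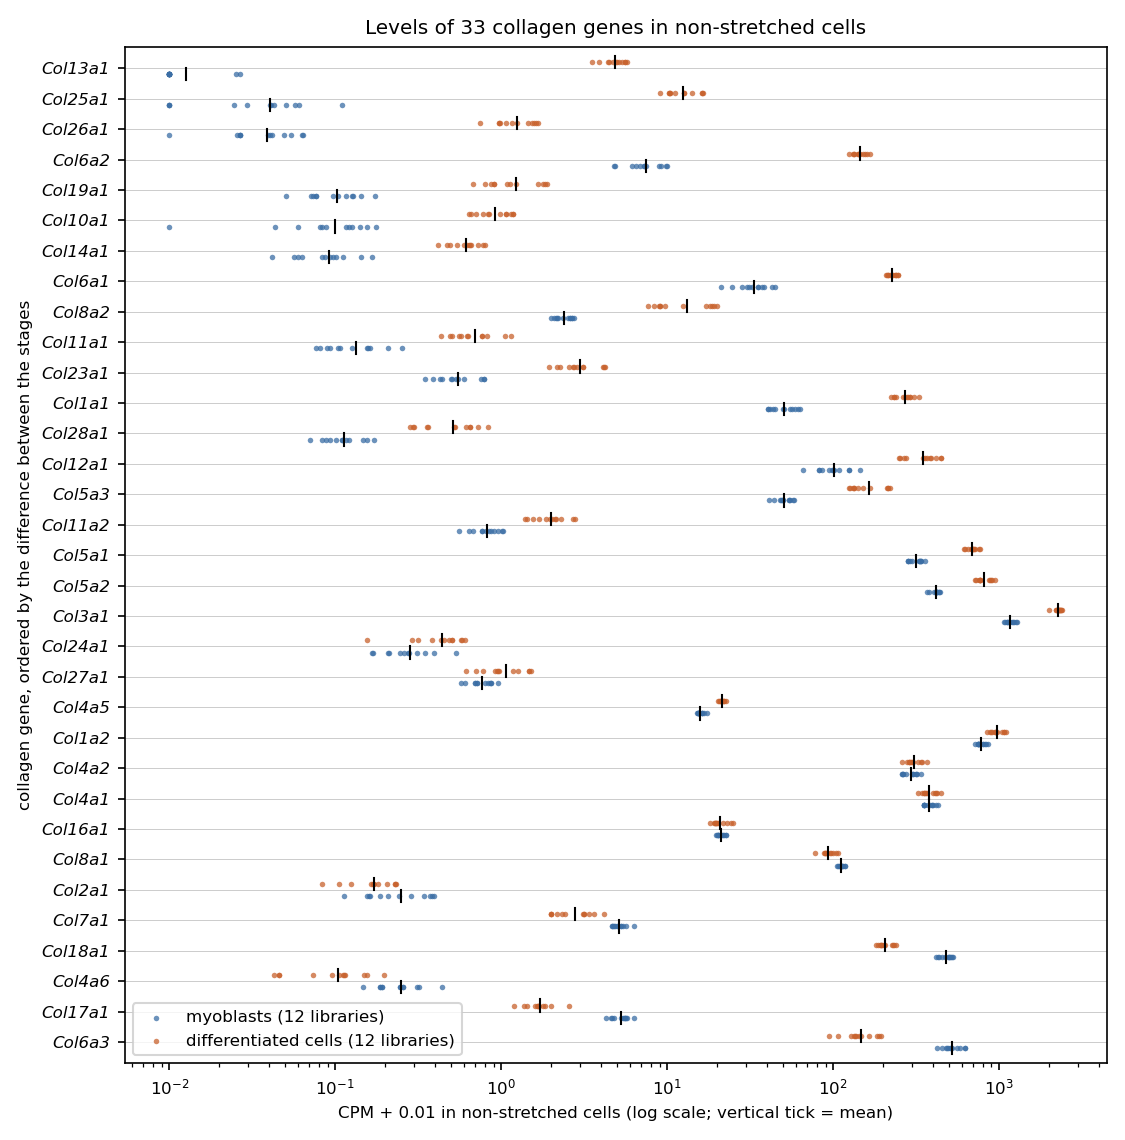
Level of each of the 33 collagen genes in the 12 non-stretched libraries of each stage, as CPM plus 0.01 on a log axis, with 1 point per library, a tick at each mean and genes ordered by the difference between stages. Col6a2, Col13a1, Col25a1 and Col26a1 were far higher in differentiated cells, Col6a3, Col17a1 and Col18a1 were lower, and the points of Col4a1 and Col4a2 overlapped between the stages.

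Between the stages, 23 of the 33 members were higher in non-stretched differentiated cells and 7 were lower at an adjusted p under 0.05 in edgeR. Over all genes tested, 45.0% were higher and 44.4% lower, so most genes of any kind differed between the stages. The median log2 difference was 1.10 for the members and 0.0059 for all genes. Of the members, 8 had a mean count under 10 in myoblasts and 2 in differentiated cells, and these were chosen through the stage in which they are higher. Among the other 23, with 10 or more in each stage, 15 were higher and 5 lower, with a median log2 difference of 0.65. With the study's added limit of 0.58 on the log2 fold change, 20 members were higher and 6 lower, against 27.1% and 24.9% of all genes.

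The fibrillar chains were higher in differentiated cells with 1 exception. Col3a1 (chromosome 1, 45311538 to 45349706, mm10) had a lowest, median and highest level of 1077, 1157 and 1280 CPM in the 12 non-stretched myoblast libraries and of 1987, 2309 and 2405 CPM in the 12 differentiated ones (log2 difference 0.93, SE 0.0296, adjusted p = 4.28e-21). Every differentiated library therefore lay above every myoblast library. Col5a1 and Col5a2, the chains of type V collagen, which sits within the fibril core, went from 282, 329 and 356 CPM to 617, 692 and 772 CPM (log2 difference 1.10, SE 0.0361, adjusted p = 9.47e-21) and from 370.3, 420.4 and 442 CPM to 718, 771 and 939.7 CPM (log2 difference 0.94, SE 0.0409, adjusted p = 6.18e-18). Col5a2 lies 24614 bases from Col3a1, tail to tail on chromosome 1.

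The chains of type I collagen differed unequally. Col1a1 went from 40.2, 50.1 and 63.1 CPM in myoblasts to 223, 274 and 327 CPM in differentiated cells (log2 difference 2.40, SE 0.0614, adjusted p = 3.11e-23), with no overlap. Its partner Col1a2 went from 716, 755 and 854 CPM to 849.8, 952 and 1099 CPM (log2 difference 0.29, SE 0.0360, adjusted p = 3.62e-08), with overlapping ranges. Per kilobase, Col1a1 stood at 0.0582 ± 0.00685 of the level of Col1a2 in myoblasts and at 0.250 ± 0.0144 in differentiated cells (n = 12 each). Col1a2 was thus the more abundant type I transcript in both stages, although the common type I molecule holds more of the chain encoded by Col1a1. The exception among fibrillar chains was Col2a1, the cartilage collagen (log2 difference -0.58), which had few counts in both stages.

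Type VI collagen showed opposite differences among its chains. Col6a2 (chromosome 10, 76595762 to 76623630, mm10) was at 4.76, 7.25 and 9.91 CPM in myoblasts and at 126, 142 and 166 CPM in differentiated cells (log2 difference 4.27, SE 0.0857, adjusted p = 1.31e-25), a 19.3-fold higher level. Col6a1, its neighbour on chromosome 10 in the same direction and 85161 bases away, was at 21.02, 33.7 and 44.4 CPM and 209, 228 and 248 CPM (log2 difference 2.75, SE 0.0781, adjusted p = 3.30e-22). Col6a3 (chromosome 1, 90765923 to 90843971, mm10), which encodes the longest of the common type VI chains, was lower in differentiated cells, at 424, 509 and 625 CPM and 93.9, 139.9 and 195 CPM (log2 difference -1.86, SE 0.0972, adjusted p = 4.27e-16). None of the 3 genes overlapped between stages.

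Among the membrane-spanning types, Col13a1, which encodes a collagen of the neuromuscular junction, was all but unread in myoblasts. It had 2 counts in all 12 non-stretched myoblast libraries and 3.502, 4.92 and 5.71 CPM (lowest, median and highest) in differentiated ones. The ratio of its summed counts, scaled to the library sizes, was 1730, while the edgeR fit gave a fold of 985. Either size rests on those 2 counts and is uncertain. Col25a1, a transmembrane collagen of developing muscle, had 22 counts in myoblasts and 9.05, 11.9 and 16.4 CPM in differentiated cells (log2 difference 8.55). Col26a1, which belongs to none of the main classes, had 21 counts in myoblasts and 0.732, 1.19 and 1.66 CPM in differentiated cells (log2 difference 5.30). These 3 genes passed the count limit through the differentiated libraries, so their stage differences are given without a test. Of the exonic 31-base stretches of Col26a1, 2.75% also occurred in another gene, more than for any other member. Col17a1, a collagen of hemidesmosomes, was lower, at 4.24, 5.44 and 6.29 CPM in myoblasts and 1.18, 1.65 and 2.57 CPM in differentiated cells (log2 difference -1.67, SE 0.0753, adjusted p = 1.45e-17).

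In the basement membrane group, Col4a1 and Col4a2 encode the chains found in every basement membrane. Neither passed the test between stages, with 380.5 ± 27.8 and 380.1 ± 38.4 CPM for Col4a1 (log2 difference -0.03, SE 0.0448, adjusted p = 0.542) and 293 ± 27.2 and 306 ± 30.8 CPM for Col4a2 (log2 difference 0.03, SE 0.0451, adjusted p = 0.476). The genes are head to head on chromosome 8, and their annotated ends overlap by 22 bases on opposite strands. Col4a6, of the minor type IV chains, was near the detection limit and lower in differentiated cells, at 0.137, 0.236 and 0.429 CPM and 0.0329, 0.0989 and 0.188 CPM, with overlapping ranges (log2 difference -1.34). It met the count limit through the myoblasts alone. Col18a1, which yields the fragment endostatin, was at 418, 494 and 524 CPM in myoblasts and 182, 199.5 and 241 CPM in differentiated cells (log2 difference -1.24, SE 0.0373, adjusted p = 1.20e-21). Col16a1, a FACIT collagen, was the remaining member that did not pass (log2 difference -0.05, SE 0.0421, adjusted p = 0.284).

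The other 15 members were all called between the stages, 13 of them higher in differentiated cells. Among fibrillar chains these were Col5a3 (log2 difference 1.66), Col11a1 (2.44), Col11a2 (1.26), Col24a1 (0.65) and Col27a1 (0.45). The FACIT genes were Col12a1 (1.76), Col14a1 (2.85) and Col19a1 (3.67), of which only Col12a1, at 101 ± 22.1 and 349.9 ± 72.2 CPM, was abundant. The short-chain genes Col8a2 (2.45) and Col10a1 (3.25), the latter known from hypertrophic cartilage, the transmembrane Col23a1 (2.43), the type IV chain Col4a5 (0.40) and Col28a1 (2.23) complete the higher members. Of these 13, Col10a1, Col11a1, Col14a1, Col19a1 and Col28a1 had a mean count under 10 in myoblasts and met the limit through the differentiated libraries, so that their direction was fixed by the choice of members. Lower in differentiated cells were Col7a1 (-0.91) and Col8a1 (-0.29), so the partner chains of type VIII differed in opposite directions.

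Differentiated cells of the 2 main experiments differed for a few members. Of 32 members with a mean count of 10 or more in those 12 non-stretched libraries, 6 had no overlap between B25 and B28, all of them higher in B28. Over all genes of that level, 2.31% were higher in B28 without overlap and 3.14% lower. The largest difference by ratio was in Col8a2, a short-chain collagen, with 8.78 ± 0.709 CPM in B25 and 17.6 ± 2.704 CPM in B28 (SD, n = 6 each). Col5a3 had 132 ± 6.13 CPM in B25 and 196 ± 29.2 CPM in B28, and Col4a1 and Col4a2 also separated. In myoblasts, 0 of 25 members separated by experiment, against 1.77% of all genes in either direction. Values within each experiment are given beside the stretch results where they differ.

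The 250 bases before the start of 5 genes on which the results turn are printed here for reference. Windows were read from RefSeq's promoter table (GRCm38.p6), which matched 27 of the 33 members and did not hold Col1a1, Col2a1, Col5a2, Col12a1, Col14a1 or Col26a1. Capitals mark matches to CANNTG, the E-box that myogenic bHLH factors such as MyoD bind, searched on both strands, where it reads the same. The first 3 are of Col3a1, the leading chain, and of Col6a2 and Col6a3, which differed in opposite directions between stages. Col13a1 showed the largest stage difference, and Col23a1 the largest called fold change with stretching.
Col3a1 (chr1:45311288-45311537, plus strand): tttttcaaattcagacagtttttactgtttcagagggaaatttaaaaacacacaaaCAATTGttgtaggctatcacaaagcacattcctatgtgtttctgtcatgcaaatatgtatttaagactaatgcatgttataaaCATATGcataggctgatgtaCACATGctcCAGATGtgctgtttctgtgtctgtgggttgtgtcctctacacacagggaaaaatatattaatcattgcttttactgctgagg
Col6a2 (chr10:76623631-76623880, minus strand): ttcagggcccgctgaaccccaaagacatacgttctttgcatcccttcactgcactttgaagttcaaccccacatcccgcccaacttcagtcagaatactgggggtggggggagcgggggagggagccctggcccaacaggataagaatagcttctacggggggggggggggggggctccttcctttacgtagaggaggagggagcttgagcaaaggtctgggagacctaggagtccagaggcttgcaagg
Col6a3 (chr1:90843972-90844221, minus strand): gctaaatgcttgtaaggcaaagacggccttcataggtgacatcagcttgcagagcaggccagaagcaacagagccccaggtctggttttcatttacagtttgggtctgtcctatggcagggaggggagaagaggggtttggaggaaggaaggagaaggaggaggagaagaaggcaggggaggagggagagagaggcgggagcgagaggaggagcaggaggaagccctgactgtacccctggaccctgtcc
Col13a1 (chr10:61979109-61979358, minus strand): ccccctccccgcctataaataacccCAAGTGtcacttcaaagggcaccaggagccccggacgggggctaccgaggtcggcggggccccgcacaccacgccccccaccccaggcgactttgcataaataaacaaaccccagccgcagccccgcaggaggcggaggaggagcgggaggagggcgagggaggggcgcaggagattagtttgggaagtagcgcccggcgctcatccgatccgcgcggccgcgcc
Col23a1 (chr11:51289670-51289919, plus strand): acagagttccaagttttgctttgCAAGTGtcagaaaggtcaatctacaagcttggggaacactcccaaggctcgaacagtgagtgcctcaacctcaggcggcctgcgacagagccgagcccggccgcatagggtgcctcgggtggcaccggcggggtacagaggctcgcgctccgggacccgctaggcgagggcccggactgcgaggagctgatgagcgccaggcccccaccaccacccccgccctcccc
The windows of Col6a2 and Col6a3 hold no CANNTG, that of Col3a1 holds 4, and those of Col13a1 and Col23a1 hold 1 each. Over the 27 windows, 14 (51.9%) held CANNTG, against 66.1% of all 27025 windows of the table. CAGCTG, which is also a CANNTG match, was in 4 collagen windows (14.8%) and 12.7% of all. The GC box GGGCGG was in 17 (63%) against 33%, CCAAT in 11 (40.7%) against 34.5%, and TATAAA in 5 (18.5%) against 13%, each on either strand. A match is a run of letters in this window, not a shown binding site.

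Ratios of partner chains within a library do not depend on its scaling. The count ratio of Col1a1 to Col1a2 was 0.0645 ± 0.00759 in non-stretched myoblasts (range 0.0539 to 0.0746) and 0.278 ± 0.0159 in non-stretched differentiated cells (range 0.250 to 0.298; SD, n = 12 each). Col6a1 to Col6a2 was 4.53 ± 0.337 (4.15 to 5.17) and 1.58 ± 0.0884 (1.48 to 1.71). Both pairs separated fully between stages. The type IV and type V pairs moved less, with Col4a1 to Col4a2 at 1.30 ± 0.0402 and 1.24 ± 0.0313 and Col5a1 to Col5a2 at 0.761 ± 0.0501 and 0.850 ± 0.0523. Stretching was compared in 24 exact two-sided permutation tests of the log2 ratios, 4 pairs at 3 times in both stages. The smallest p that 4 against 4 libraries can give, 0.0286, was reached by Col1a1 to Col1a2 in myoblasts at 3 h, where the log2 ratio was lower by 0.168 when stretched. After Benjamini-Hochberg adjustment the smallest p was 0.4114. With 24 tests, 14 would have had to reach 0.0286 for any adjusted p to be under 0.05, so these tests could hardly pass and do not show that the ratios were alike.

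**Figure D2:**
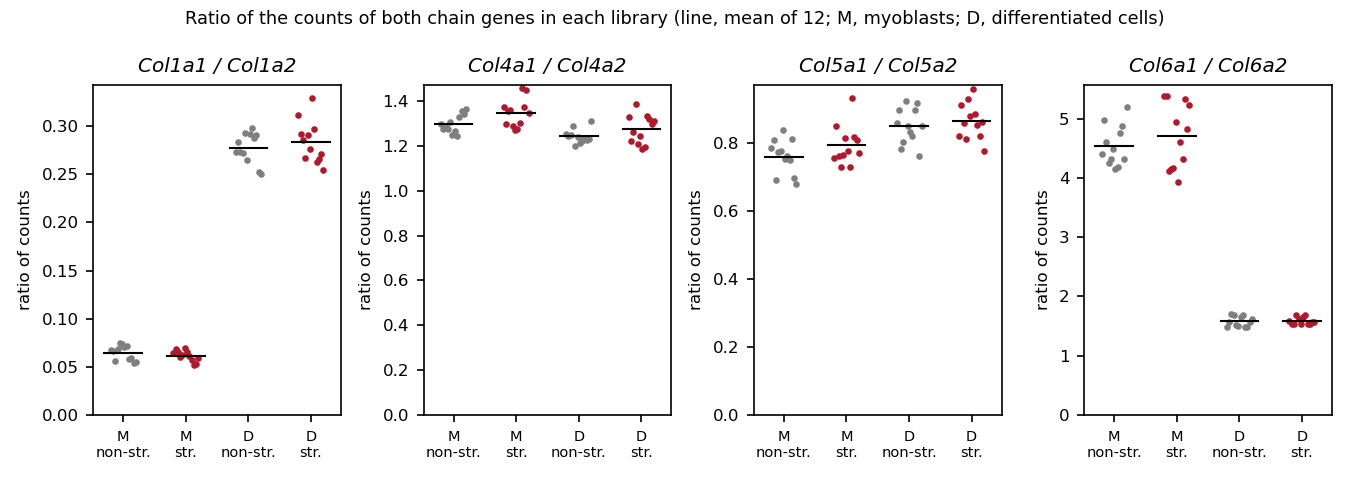
Count ratio of partner chains in every library, on an axis from 0, by stage and treatment with the times pooled, with 1 point per library and a line at the mean of 12 libraries. The ratios Col1a1 to Col1a2 and Col6a1 to Col6a2 separate the stages, while stretched and non-stretched libraries lie close together within each stage.

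Stretching was compared with no stretching at each time within a stage, as 4 against 4 libraries. A gene is said to have risen or fallen where its adjusted p over all genes tested was under 0.05. In myoblasts 25 members passed the filter on low counts at each time, and in differentiated cells 32, 32 and 31 at 1, 3 and 6 h. Not tested in myoblasts were Col10a1, Col11a1, Col13a1, Col14a1, Col19a1, Col25a1, Col26a1 and Col28a1, and in differentiated cells Col4a6 at any time and Col2a1 at 6 h. Over the 6 comparisons, 14 of the 33 members passed at least once, against 54.8% of all genes tested. Of the 19 that did not, 8 had not been tested in myoblasts, and 3 (Col5a1, Col5a2 and Col5a3) passed in a fit with the experiment as a covariate. The other abundant ones were Col6a3 and Col12a1. Values are in CPM for replicates 7, 8, 9 and 10, in that order, and for replicates 4, 7, 8 and 9 in stretched differentiated cells at 1 h.

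In myoblasts stretched for 1 h, the type VI genes Col6a1 and Col6a2 fell and no collagen gene rose. Of all genes tested, 4.24% were lower and 1.67% higher, and of the 25 members 2 fell and 0 rose. Col6a2 was at 6.86, 6.495, 6.16 and 7.29 CPM without stretching and at 4.92, 4.74, 4.73 and 4.66 CPM with it (log2 fold change -0.49, SE 0.0685, adjusted p = 0.00151). Every stretched library lay under every non-stretched one, and the log2 fold change was -0.47 in B27 and -0.51 in B31. Col6a1 was at 30.2, 32.3, 28.4 and 31.01 CPM and at 26.4, 25.5, 19.5 and 19.3 CPM (log2 fold change -0.43, SE 0.0984, adjusted p = 0.0253). Its groups did not overlap either, but the log2 fold change was -0.27 in B27 and -0.61 in B31, and the call was lost in 6 of 14 alternatives, those leaving out non-stretched replicate 7, 8 or 10 or stretched replicate 9 or 10 and the fit of all 24 libraries (highest adjusted p = 0.0778). In all, 7 members had an unadjusted p under 0.05, as did 19.0% of all genes, and DESeq2 and the experiment covariate each called 1 member higher, which with the covariate, where 2.01% of all genes were higher, was Col4a1 (log2 fold change 0.20, adjusted p = 0.0435). Col6a3, the third chain of the common type VI trimer, had a log2 fold change of 0.06 (SE 0.167, adjusted p = 0.903), and its SE was larger than those of Col6a1 and Col6a2. The summed osteoblast markers, nearly all Runx2, were at 81.6 to 90.7 CPM without stretching and 91 to 105 CPM with it, which do not overlap, and their part in this result was not tested.

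At 3 h, 6 members fell in stretched myoblasts and 1 rose, against 15.8% and 16.0% of all genes. The falls took in chains of types I, III and VI. Col3a1 went from 1280, 1260, 1208 and 1230 CPM without stretching to 1123, 1116, 1073 and 1059 CPM with it (log2 fold change -0.20, SE 0.0250, adjusted p = 7.60e-05), a difference of modest size with no overlap. Col6a1 was at 42.8, 44.4, 38.4 and 37.1 CPM and at 32.1, 33.01, 27.2 and 25.2 CPM (log2 fold change -0.48, SE 0.0766, adjusted p = 0.000461). Col6a2 was at 9.91, 9.89, 9.24 and 8.88 CPM and at 7.72, 6.68, 6.92 and 5.46 CPM (log2 fold change -0.51, SE 0.0842, adjusted p = 0.000584). Both of these type VI genes separated fully by treatment, as they had at 1 h. Col6a3 did not pass, and with the experiment as a covariate its log2 fold change was -0.06 (adjusted p = 0.65).

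Col1a1 at 3 h was at 61.6, 63.1, 56.3 and 59.1 CPM in non-stretched and 49.6, 56.6, 49.7 and 45.2 CPM in stretched myoblasts (log2 fold change -0.27, SE 0.0544, adjusted p = 0.00252). Stretched replicate 8 reached the non-stretched range, so these groups overlapped. Col1a2 fell by less, from 827 ± 21.4 to 777 ± 34.3 CPM (adjusted p = 0.0235), and Col4a5, a basement membrane chain of muscle and kidney, from 15.9 ± 1.02 to 14.3 ± 0.690 CPM (adjusted p = 0.0284). Each of these last calls was lost in 4 of 14 alternatives. For Col1a2 those were the fits leaving out non-stretched replicate 8 or 10 or stretched replicate 9 or 10 (highest adjusted p = 0.0751), and for Col4a5 those leaving out non-stretched replicate 10 or stretched replicate 7 or 10 and with a replicate block (highest adjusted p = 0.0965).

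The member that rose at 3 h was Col4a1, from 396, 395, 383 and 373 CPM to 434, 441, 434 and 382 CPM (log2 fold change 0.12, SE 0.0388, adjusted p = 0.0348). Stretched replicate 10 lay inside the non-stretched range, and the call was lost in 6 of 14 alternatives, those leaving out non-stretched replicate 9 or 10 or stretched replicate 7, 8 or 9 and the fit of all 24 libraries (highest adjusted p = 0.108). Col4a2 had a log2 fold change of 0.10 (adjusted p = 0.105). The summed myoblast and satellite cell markers were at 326 to 383 CPM without stretching and 389 to 448 CPM with it, without overlap, and their part in these results was not tested.

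After 6 h, the basement membrane chains Col4a1 and Col4a2 and the anchoring fibril chain Col7a1 rose in stretched myoblasts, and Col4a5, Col8a1, Col8a2 and Col16a1 fell. This is 3 higher and 4 lower of 25 members, against 14.1% and 13.0% of all genes. Col4a1 went from 352, 354, 355 and 355 CPM to 432, 402, 412 and 416 CPM (log2 fold change 0.25, SE 0.0297, adjusted p = 0.000249). Col4a2 went from 265, 261, 264 and 261 CPM to 296, 293, 284 and 309 CPM (log2 fold change 0.19, SE 0.0295, adjusted p = 0.00111). In both genes the 4 non-stretched libraries lay within a narrow band and every stretched library lay above it. Col7a1, whose product anchors basement membranes to the tissue beneath, went from 4.73, 4.64, 5.07 and 4.63 CPM to 6.84, 6.75, 8.29 and 6.12 CPM (log2 fold change 0.57, SE 0.0918, adjusted p = 0.00122).

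Apart from Col4a5, the genes that fell at 6 h had not passed earlier. Col8a1 and Col8a2 encode the short chains of type VIII collagen, known from the sheets under endothelia. Col8a1 was at 118, 117, 114 and 115 CPM without and 90.5, 103, 80.8 and 99.5 CPM with stretching (log2 fold change -0.29, SE 0.0591, adjusted p = 0.00421), and Col8a2 at 2.35, 2.503, 1.98 and 2.16 CPM and 1.74, 1.55, 1.24 and 1.44 CPM (log2 fold change -0.57, SE 0.127, adjusted p = 0.00702). Neither gene overlapped between treatments. Col16a1 was at 20.02, 20.9, 19.8 and 20.3 CPM and 16.2, 17.2, 18.1 and 16.9 CPM (log2 fold change -0.23, SE 0.0429, adjusted p = 0.00324). Col4a5, which lies head to head with Col4a6 at a distance of 1308 bases on chromosome X, was at 16.3, 16.7, 16.2 and 16.2 CPM and 14.6, 12.3, 13.5 and 12.9 CPM (log2 fold change -0.28, SE 0.0549, adjusted p = 0.0039). It thus fell while the other 2 abundant type IV chains rose. All 7 calls at 6 h were kept in 14 of 14 alternatives.

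None of the type VI genes passed at 6 h in myoblasts. For Col6a3 the log2 fold change was 0.285 (adjusted p = 0.179) with the experiment as a covariate, opposite in sign to Col6a1 and Col6a2. Col6a1 was at 35.4, 35.2, 21.02 and 24.7 CPM and 25.2, 25.9, 19.1 and 19.5 CPM (log2 fold change -0.35, SE 0.165, adjusted p = 0.136), and Col6a2 at 7.43, 7.21, 4.87 and 4.76 CPM and 5.84, 4.87, 3.96 and 3.74 CPM (log2 fold change -0.38, SE 0.179, adjusted p = 0.14). For Col6a1 and Col6a2, every stretched library lay under both non-stretched ones within each experiment, but replicates 9 and 10 had lower levels than 7 and 8. With the experiment as a covariate, 4 members were higher and 8 lower, against 14.4% and 13.6% of all genes in that fit. The additions were Col5a3 (log2 fold change 0.12, adjusted p = 0.027), Col6a1 (-0.34, adjusted p = 0.00248), Col6a2 (-0.37, adjusted p = 0.00579), Col3a1 and Col5a2. With the replicate number as a block, 4 were higher and 7 lower, against 13.4% and 12.7%, with Col6a1 and Col6a2 again lower. Of the marker lists, the summed myogenic differentiation markers were at 813 to 856 CPM without stretching and 754 to 807 CPM with it. The endothelial ones were at 0.389 to 0.549 CPM without stretching and 0.598 to 0.9 CPM with it. In both cases there was no overlap. The former sum was nearly all Des, which had a mean of 821 CPM in myoblasts, and the latter was near the floor. Their part in these results was not tested.

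**Figure D3:**
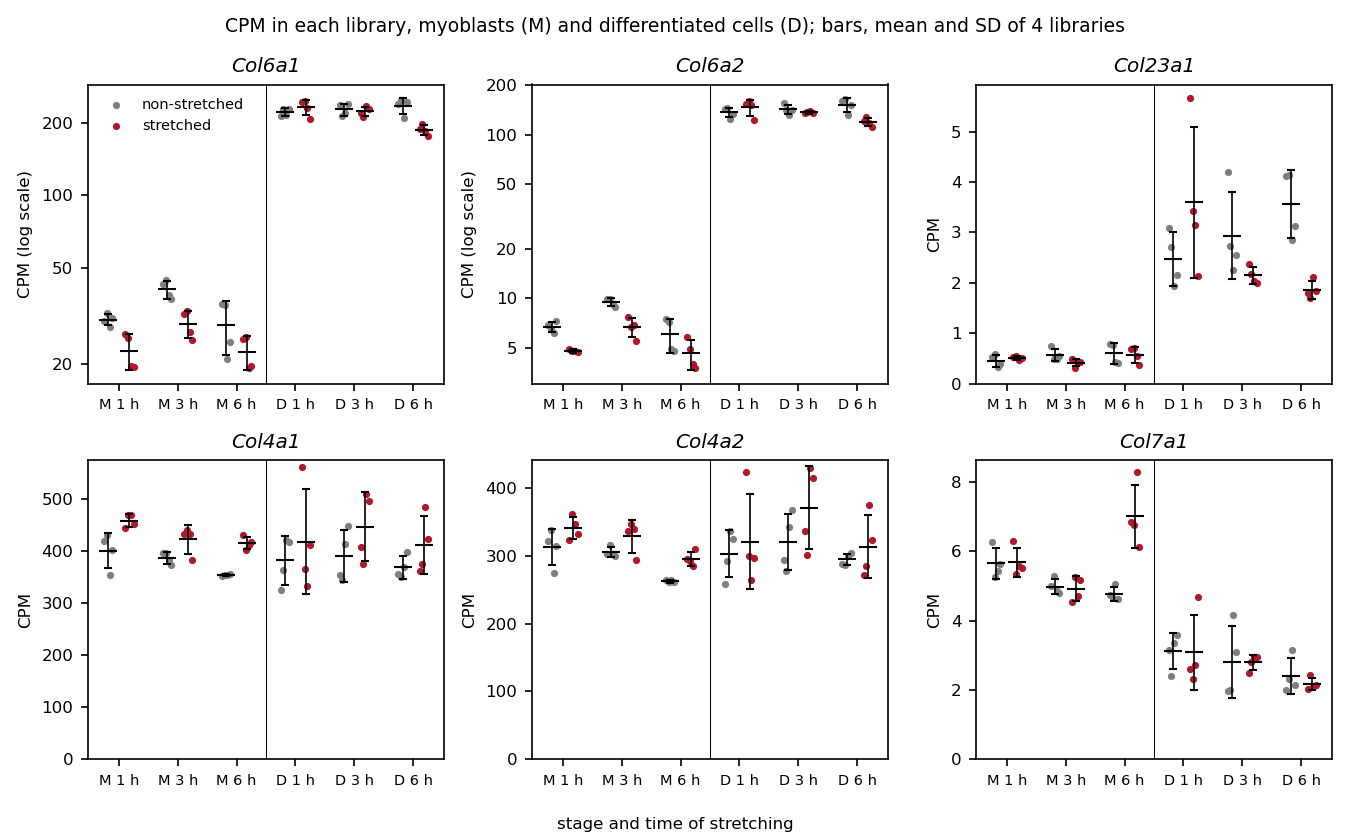
Level in CPM of 6 collagen genes in every library, by stage (M, myoblasts; D, differentiated cells), time in hours and treatment, with bars for the mean and SD of 4 libraries and a log axis for Col6a1 and Col6a2. Stretched points lie under the non-stretched ones for Col6a1 and Col6a2 in myoblasts at 1 and 3 h and in differentiated cells at 6 h.

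In differentiated cells at 1 h, stretched replicate 4 stood apart from the rest before any comparison. Collagen took 0.854% of its counts, the highest share of any library, and its proliferation markers summed to 720 CPM against 376 to 427 CPM in the other 3 libraries of its group. Of 32 members tested, 0 rose and 0 fell in edgeR, against 0.193% and 0.470% of all genes, and DESeq2 also called 0. At an unadjusted p under 0.05 there was 1, Col25a1 (log2 fold change -0.49), against 8.92% of all genes. Without replicate 4 the counts were again 0 and 0. Col6a1 was at 213, 228, 214 and 228 CPM without and 242, 245, 230.6 and 208 CPM with stretching (log2 fold change 0.07, SE 0.0579, adjusted p = 0.871), and Col6a2 at 143, 146, 126 and 134 CPM and 153, 161, 151 and 123 CPM (log2 fold change 0.10, SE 0.0813, adjusted p = 0.859). Both genes overlapped widely. The summed endothelial markers were at 0.769 to 0.955 CPM without stretching and 0.54 to 0.738 CPM with it, without overlap. This sum was near the floor and differed in the opposite direction from that in myoblasts at 6 h. Its part was not tested.

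At 3 h in differentiated cells, 0 of 32 members rose and 0 fell in edgeR, against 10.8% and 11.4% of all genes, and DESeq2 again called 0. At an unadjusted p under 0.05 there were 4, Col3a1 (log2 fold change -0.09), Col5a1 (0.21), Col23a1 (-0.44) and Col14a1 (0.41), against 34.9% of all genes. The count depended on how the experiments were modelled. With experiment as a covariate, 5 members were higher and 2 lower, against 13.9% and 14.2% of all genes. The smallest p was that of Col5a3, a minor type V chain (log2 fold change 0.26, adjusted p = 0.000218), at 134, 133, 209.8 and 213 CPM without and 166, 166, 242 and 242 CPM with stretching. In each experiment both stretched libraries of Col5a3 lay above both non-stretched ones, while B28 as a whole was higher than B25. The others were Col4a1 (0.19, adjusted p = 0.00282), Col4a2 (0.21, adjusted p = 0.00473), Col5a1 (0.20, adjusted p = 0.0153), Col5a2 (0.11, adjusted p = 0.0375), Col3a1 (-0.10, adjusted p = 0.0455) and Col23a1 (-0.43, adjusted p = 0.0464). With the replicate number as a block, 5 were higher and 1 lower, against 11.6% and 11.5%, and Col3a1 was not among them. Marker sums without overlap were those of fibroblast and tendon (229 to 232 CPM without stretching and 234 to 257 CPM with it), osteoblast (45.5 to 51 CPM without stretching and 52.4 to 55.6 CPM with it) and chondrocyte (65.5 to 69.6 CPM without stretching and 71.5 to 85.1 CPM with it), and their part was not tested. These sums were mostly Scx, Runx2 and Sox9, in that order.

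After 6 h of stretching, differentiated cells had lower levels of Col23a1, of the type VI genes Col6a1 and Col6a2, of the type I genes and of Col4a5 and Col16a1, and a higher level of Col18a1. This is 7 lower and 1 higher of 31 members, against 10.8% and 11.5% of all genes, with a median log2 fold change of -0.15 for the members and of -0.0001 for all genes. Col23a1 (chromosome 11, 51289920 to 51583918, mm10), a transmembrane collagen, was at 4.12, 4.14, 2.84 and 3.12 CPM without stretching and 1.80, 1.69, 2.12 and 1.84 CPM with it (log2 fold change -0.93, SE 0.142, adjusted p = 0.00192). The groups did not overlap, and the log2 fold change was -1.24 in B25 and -0.59 in B28. It was the only collagen gene in the 6 comparisons to pass the study's added fold limit of 0.58, which 1.52% of all genes passed downward here.

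Col6a1 was at 238, 248, 209 and 244 CPM without and 187, 197, 185 and 176 CPM with 6 h of stretching (log2 fold change -0.34, SE 0.0552, adjusted p = 0.00271). Col6a2 was at 160.5, 166, 133 and 151 CPM and 122, 128, 118 and 112 CPM (log2 fold change -0.35, SE 0.0655, adjusted p = 0.00452). Stretched and non-stretched libraries did not overlap in either gene. Col6a3 did not pass, and with the experiment as a covariate its log2 fold change was 0.03 (adjusted p = 0.954). Col4a5 was at 21.2, 21.5, 22.7 and 21.1 CPM and 17.6, 17.2, 18.9 and 18.1 CPM (log2 fold change -0.27, SE 0.0438, adjusted p = 0.00255), also without overlap, and it fell at this time in both stages. The calls of Col23a1, Col4a5, Col6a1 and Col6a2 were kept in 14 of 14 alternatives.

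The remaining calls at 6 h were less stable. Col1a2 went from 928 ± 33.6 to 807 ± 58.2 CPM (SD, n = 4 each; adjusted p = 0.0182) and lost its call on leaving out non-stretched replicate 8 or stretched replicate 7 and in the fit of all 24 libraries (highest adjusted p = 0.12). Col1a1 (log2 fold change -0.24, adjusted p = 0.0475) overlapped between treatments, had a log2 fold change of -0.40 in B25 and -0.08 in B28, and lost its call in 9 of 14 alternatives, among them RLE normalization, the experiment covariate and the replicate block. Without single libraries the call was lost for non-stretched replicates 7 and 8 and stretched replicates 7, 8 and 10 (highest adjusted p = 0.2). Col16a1 (-0.23, adjusted p = 0.0425) lost its call in 7 alternatives, without any 1 of the 4 non-stretched replicates, without stretched replicate 8 or 10, and with all 24 libraries (highest adjusted p = 0.149).

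Col18a1 was the member that rose, from 187, 193, 194 and 202 CPM to 201, 212, 233 and 235 CPM (log2 fold change 0.18, SE 0.0529, adjusted p = 0.0327). The groups overlapped at stretched replicate 7, and the call was lost in 5 of 14 alternatives, those leaving out non-stretched replicate 7 or 8 or stretched replicate 9 or 10, and with all 24 libraries (highest adjusted p = 0.333). With the experiment as a covariate, 2 members were higher, with Col5a3 added (0.28, adjusted p = 0.00145), and 7 lower, with Col8a2 added (-0.46, adjusted p = 0.0382) and Col1a1 lost, against 11.9% and 11.7% of all genes. The replicate block also gave 2 higher and 7 lower, against 8.68% and 8.77%. The summed fibroblast and tendon markers, most of it Scx, were at 222 to 260 CPM without stretching and 179 to 202 CPM with it, with no overlap, beside these falls. Thy1 was near 0 and Tcf21 at 0, and the part of this list in the result was not tested.

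**Figure D4:**
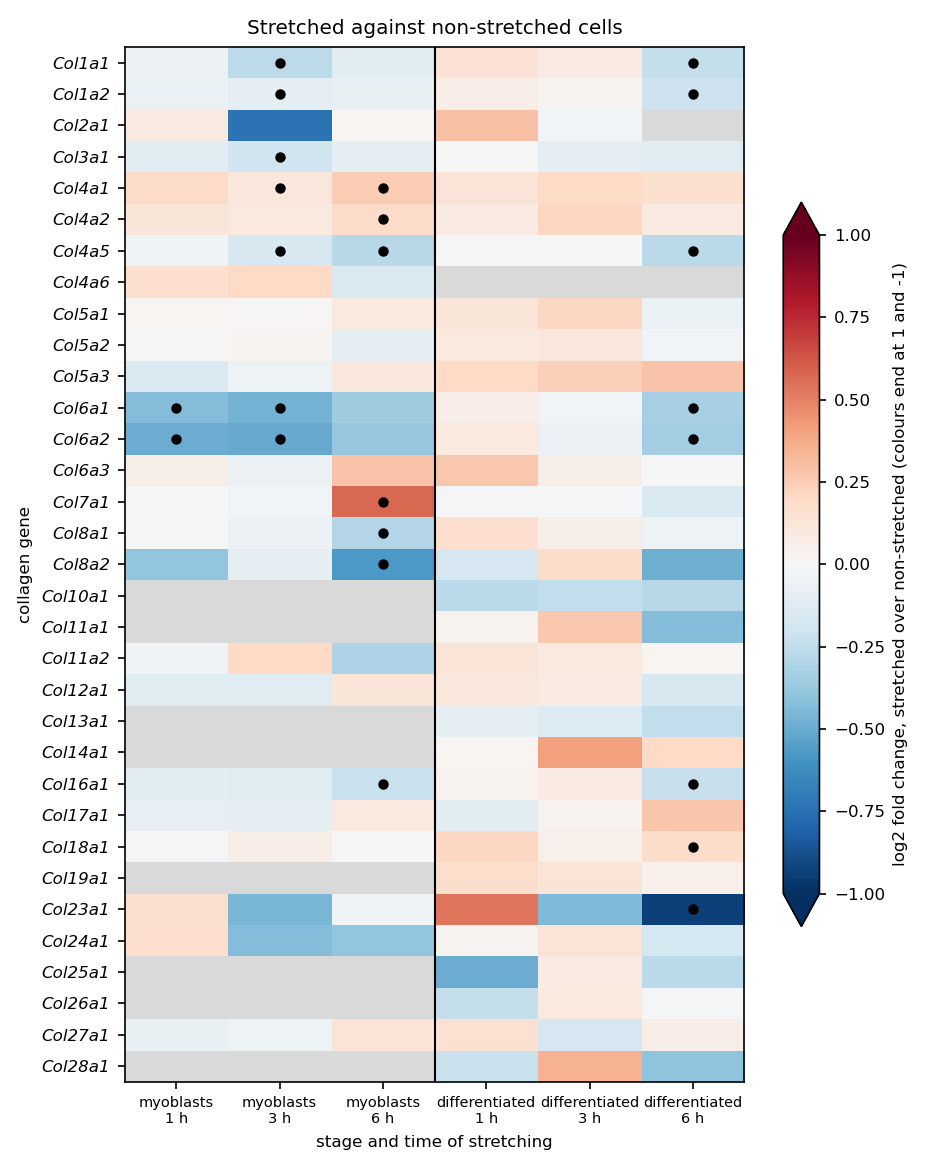
Log2 fold change of stretched over non-stretched cells as colour for each collagen gene at 1, 3 and 6 h in both stages, blue for lower and red for higher, with a dot where the adjusted p was under 0.05 and grey where the gene was not tested. Dots for Col6a1 and Col6a2 stand at 1 and 3 h in myoblasts and at 6 h in differentiated cells, and the darkest dotted field is that of Col23a1 at 6 h.

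Whether the response to stretching changed with time was tested within a stage, as the effect at 6 h minus that at 1 h. In myoblasts 2 of 26 members had a higher effect at 6 h and 2 a lower one, against 11.6% and 9.42% of all genes. These were Col7a1 (difference 0.57, SE 0.113, adjusted p = 0.000759) and Col5a3 (difference 0.26, SE 0.0770, adjusted p = 0.0177) on one side and Col8a1 (difference -0.28, SE 0.0621, adjusted p = 0.00215) and Col4a5 (difference -0.24, SE 0.0704, adjusted p = 0.0152) on the other. All 4 were called in 20 of 20 alternatives. In differentiated cells 0 of 32 had a higher effect at 6 h and 4 a lower one, against 6.73% and 5.13%. They were Col23a1 (difference -1.47, SE 0.322, adjusted p = 0.00441), Col6a2 (difference -0.45, SE 0.102, adjusted p = 0.00559), Col6a1 (difference -0.41, SE 0.0803, adjusted p = 0.00204) and Col4a5 (difference -0.27, SE 0.0803, adjusted p = 0.0281). The size for Col23a1 ran from -1.657 to -1.085 over the alternatives and was -1.104 with the replicate block. The 1 h effect in these contrasts includes stretched replicate 4, the only library of B17. Col4a5 lost its call in 5 of 20 alternatives, those leaving out non-stretched replicate 7 or stretched replicate 7 at 1 h, or non-stretched replicate 9 or stretched replicate 7 or 8 at 6 h (highest adjusted p = 0.0618). In myoblasts the effect on Col6a1 (difference 0.08, adjusted p = 0.84) and Col6a2 (difference 0.11, adjusted p = 0.746) was not shown to change between 1 and 6 h.

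Whether stretching acted differently in the 2 stages was tested directly, in a comparison added after the data had been seen, and the answer depended on the model. The effect of stretching in differentiated cells minus that in myoblasts was called for 0 of 33 members at 1 h, 0 at 3 h and 0 at 6 h, against 0.170%, 1.01% and 5.98% of all genes. These 33 include the 8 members not tested in myoblasts and Col4a6, not tested in differentiated cells. For them this comparison is not informative. At an unadjusted p under 0.05 there were 3, 3 and 4 members, against 5.99%, 10.2% and 19.6% of all genes. The smallest adjusted p at 1 h was that of Col6a2 (difference 0.59, SE 0.153, adjusted p = 0.112) and at 6 h that of Col7a1 (difference -0.70, SE 0.236, adjusted p = 0.0645). DESeq2 called these same genes, 1 at each of these times, and 0 at 3 h.

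With the replicate number as a block within each stage, members were called at every time. In this fit, the type VI genes Col6a1 and Col6a2 had a lower stretch effect in myoblasts than in differentiated cells at 1 and 3 h. The third type VI gene, Col6a3, was not called. Without the block, neither Col6a1 nor Col6a2 passed in edgeR. Their adjusted p there was 0.344 and 0.112 at 1 h and 0.214 and 0.188 at 3 h. At 1 h, 2 of 33 members had a higher effect in differentiated cells, Col6a1 (difference 0.49, SE 0.102, adjusted p = 0.0137) and Col6a2 (difference 0.55, SE 0.121, adjusted p = 0.0226), against 0.282% of all genes. At 3 h there were 3, against 1.37%, again Col6a1 (difference 0.45, SE 0.0970, adjusted p = 0.00606) and Col6a2 (difference 0.44, SE 0.111, adjusted p = 0.021), and Col5a3 (difference 0.29, SE 0.0759, adjusted p = 0.0272). At 6 h, 3 were higher and 2 lower, against 6.86% and 3.58%. The higher ones were Col8a1 (difference 0.27, SE 0.0703, adjusted p = 0.0119), Col18a1 (difference 0.20, SE 0.0554, adjusted p = 0.0144) and Col26a1, whose value rests on a few counts in myoblasts. Col26a1 had not passed the filter in myoblasts and entered this fit through the differentiated libraries. Its call is therefore not a result about stretching. The lower ones were Col7a1 (difference -0.68, SE 0.187, adjusted p = 0.0151) and Col23a1 (difference -0.86, SE 0.233, adjusted p = 0.0138). Same-numbered libraries came from the same experiment of their stage, and the fit without the block did not take the experiment into account. Stretched replicate 4 of differentiated cells at 1 h shared its number with no other library. The block therefore took it up alone, and it added nothing to the blocked comparison.

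Genes that make, process, cut or bind collagen were followed in 4 lists. The first holds 25 genes for biosynthesis and folding, such as prolyl hydroxylases and the collagen chaperone Serpinh1. Between stages, 13 of its 23 tested genes were higher in differentiated cells and 9 lower, and of the 11 tested genes for extracellular processing and crosslinking 5 were higher and 4 lower. For breakdown the counts were 7 and 2 of 10, and for receptors and fibril-bound partners 11 and 1 of 12. The 2 of smallest p were Mmp15, a membrane-bound metalloproteinase, at 2.98 ± 0.3903 and 139 ± 4.46 CPM (log2 difference 5.53, SE 0.0441, adjusted p = 4.79e-34), and Tmem38b, an ion channel of the endoplasmic reticulum, at 12.5 ± 0.773 and 89.7 ± 4.29 CPM (log2 difference 2.81, SE 0.0271, adjusted p = 1.44e-32). As among the members themselves, these counts stand beside 45.0% of all genes higher and 44.4% lower. The breakdown list also holds the metalloproteinase inhibitors Timp1, Timp2 and Timp3. Its lower genes were the inhibitors Timp1 (log2 difference -0.56) and Timp3 (-0.57), while Timp2 (1.20) was among its higher ones. Counts of this list, here and with stretching, are therefore not a measure of breakdown.

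With stretching, the folding list moved most at 6 h in myoblasts, where 8 of 23 tested genes rose and 2 fell, beside 14.1% and 13.0% of all genes. Among them P4hb, the beta subunit of prolyl hydroxylase, went from 829 ± 16.1 to 1009 ± 75.9 CPM (log2 fold change 0.30, adjusted p = 0.00132). In the processing list 2 of 11 rose and 5 fell, and Adamts14, which trims procollagen ends, went from 59.2 ± 1.48 to 44.1 ± 2.603 CPM (log2 fold change -0.41, adjusted p = 7.39e-05). Breakdown genes had 2 risen and 1 fallen of 8, and receptors 0 and 2 of 9. At 3 h the counts of risen and fallen genes were 1 and 1 of 23 for folding, 2 and 2 of 12 for processing, 1 and 0 of 8 for breakdown and 0 and 1 of 9 for receptors, beside 16.0% of all genes higher and 15.8% lower. The 2 of smallest p at 3 h were Timp3, an inhibitor of metalloproteinases (log2 fold change 0.37, adjusted p = 3.22e-05), and Sec24d, a coat protein of procollagen export (log2 fold change 0.12, adjusted p = 0.00213). At 1 h the receptor Itga10 fell (log2 fold change -0.49, adjusted p = 0.038), and it was the only gene of the 4 lists to pass, beside 1.67% of all genes higher and 4.24% lower.

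In differentiated cells 0 genes of the 4 lists passed at 1 h in edgeR, and 1 had an unadjusted p under 0.05, against 8.92% of all genes. At 3 h, 0 rose and 1 fell of 23 folding genes, 1 and 1 of 11 processing genes, 2 and 0 of 9 breakdown genes, and 1 and 0 of 12 receptors, beside 10.8% of all genes higher and 11.4% lower. Timp3 had the smallest p, going from 256 ± 15.2 to 399.5 ± 23.9 CPM (log2 fold change 0.64, adjusted p = 6.30e-05), ahead of Loxl2, a collagen crosslinking oxidase (log2 fold change 0.24, adjusted p = 0.00438). At 6 h, 4 of 23 folding genes rose and 3 fell, while 5 of 11 processing genes, 2 of 9 breakdown genes and 5 of 12 receptors fell and 0 of each rose, beside 11.5% of all genes higher and 10.8% lower. P3h3, a prolyl hydroxylase (16.8 ± 0.452 to 13.8 ± 0.415 CPM, log2 fold change -0.29, adjusted p = 0.00192), and Loxl1, another crosslinking oxidase (329 ± 11.6 to 272 ± 14.2 CPM, log2 fold change -0.27, adjusted p = 0.00232), had the smallest p. Chosen after its values were seen, Serpinh1 rose from 612 ± 8.47 to 884 ± 205 CPM in stretched myoblasts after 6 h (log2 fold change 0.55, adjusted p = 0.00909) and from 652 ± 42.1 to 862 ± 136 CPM in differentiated cells (log2 fold change 0.40, adjusted p = 0.0146).

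**Figure D5:**
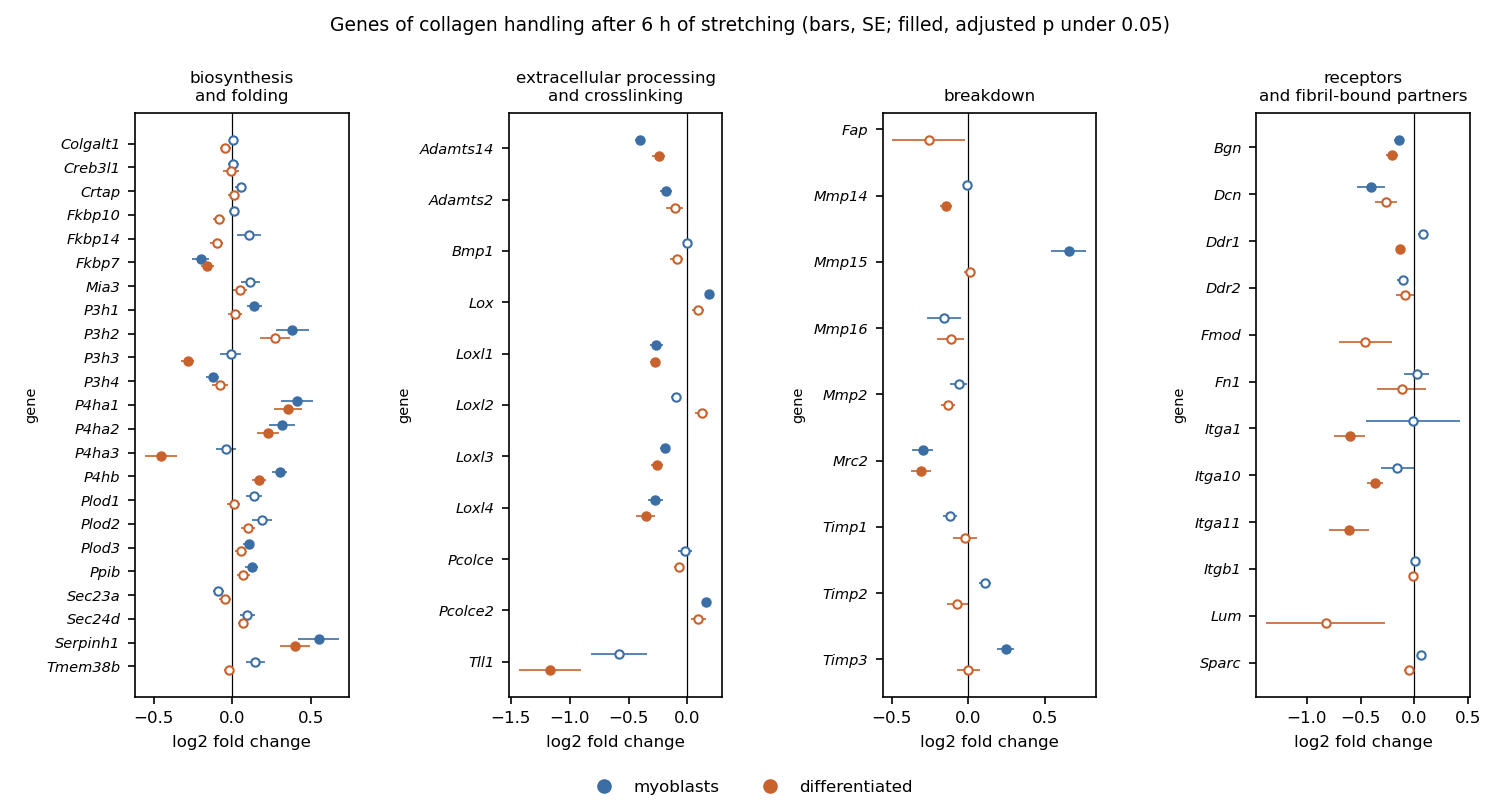
Log2 fold change of stretched over non-stretched cells at 6 h for the genes of the 4 collagen pathway lists in both stages, with bars of 1 SE and filled points where the adjusted p was under 0.05. In differentiated cells the 12 receptors and fibril-bound partners all lie under 0, and 5 of them passed the test.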

How the data were processed

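Whole-number gene counts were deposited by the authors as tables, 1 per stage, with 1 column per library and 47480 symbols. According to the submitters' notes and the study's methods, reads were aligned to mm10 with STAR, quantified with Salmon and tested by the authors with DESeq2. The labels call the molecule nuclear RNA, while the methods describe a stranded mRNA kit. All 48 columns were used and 0 were left out. No 2 libraries of a group held identical counts, in 72 pairs compared.

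Members and gene lists were chosen with earlier results of these data known. CPM were computed with TMM scaling over all libraries. Each comparison was fitted in edgeR 4.0.16 (R 4.3.3) by the quasi-likelihood test on the raw counts of its own libraries, after filterByExpr. The comparison of the stages had the time point as a covariate, and the others had no covariates. P-values were adjusted over all genes tested by the Benjamini-Hochberg method. The self-test on simulated counts used the same code. DESeq2 1.42.0, other normalization and filters, an experiment covariate, a replicate block and leaving out each library were the alternatives. Between the stages, all libraries of a replicate number were left out together instead of each library. Positions and lengths were from GENCODE vM21 on mm10. Full values were given for the members of smallest p per direction and comparison (at most 4), the 5 of highest CPM per kb per stage and the 3 of largest stage difference each way, and for pathway lists the 2 of smallest p.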

Additional observations from a re-analysis of the deposited data

Results flagged for a closer look

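In 262 groups of 4 libraries checked over 22 collagen genes, 19 (7.25%) held a library far from the other 3 by Dixon's test, where chance alone gives about 5%. In 5 of the 19 the other 3 libraries were at 0, so that any read at all set the library apart, and without such groups 14 of 257 (5.45%) remained. In myoblasts at 1 h these were Col1a1 in stretched replicate 8 (51.5 CPM, others 44.3 to 45.5), Col4a6 in non-stretched replicate 8 (0.237 CPM), Col5a1 in non-stretched replicate 9 (289 CPM, others 332 to 338) and Col8a2 in non-stretched replicate 10 (2.68 CPM). At 3 h they were Col4a1 in stretched replicate 10 (382 CPM, others 434 to 441) and Col8a1 in stretched replicate 9 (102 CPM). At 6 h they were Col4a5 (16.7 CPM) and Col5a1 (300.3 CPM) in non-stretched replicate 8. Col13a1, at 0 in the other 3 libraries of each group, was at 0.0162 CPM in stretched replicate 10 at 1 h, 0.0165 and 0.0304 CPM in non-stretched and stretched replicate 8 at 3 h, and 0.0153 CPM in non-stretched replicate 9 at 6 h. Col26a1 was at 0.081 CPM in stretched replicate 10 at 1 h and at 0.0373 CPM in stretched replicate 10 at 3 h. These last values are of a few counts each.

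In differentiated cells at 1 h, Col7a1 was high in stretched replicate 9 (4.67 CPM, others 2.33 to 2.71) and Col8a1 in stretched replicate 4 (150 CPM, others 92.7 to 98.6). At 6 h, stretched replicate 9 was high for Col5a1 (761 CPM, others 610 to 616) and for Col6a3 (230.5 CPM, others 120 to 135), and non-stretched replicate 9 for Col5a2 (885 CPM, others 763 to 771).

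The effect of stretching differed between 6 and 1 h, by the interaction term in edgeR, for 4 members in each stage. On the log2 scale the difference in myoblasts was 0.57 for Col7a1, 0.26 for Col5a3, -0.24 for Col4a5 and -0.28 for Col8a1. In differentiated cells it was -1.47 for Col23a1 (-1.657 to -1.085 over the alternatives), -0.45 for Col6a2, -0.41 for Col6a1 and -0.27 for Col4a5.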

How the results depend on the processing

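Of 496 checks of a named gene under an alternative, 447 kept the call, 49 lost it and 0 changed sign. Between the stages, 22 to 24 members were higher and 6 to 7 lower when all non-stretched libraries of a replicate number were left out together. Leaving out single libraries was not run for the stages. In myoblasts at 1 h, the count of collagen genes higher was 0, and 1 with DESeq2, with no filter, with all 24 libraries or with the experiment covariate, and 0 to 1 without single libraries. The count lower was 2, and 1 to 3 without single libraries (1 on leaving out non-stretched replicate 7, 8 or 10 or stretched replicate 9 or 10). At 3 h the count higher was 1, 0 with all 24 libraries, and 0 to 3 without single libraries (0 on leaving out non-stretched replicate 9 or 10 or stretched replicate 7, 8 or 9, and 3 on leaving out stretched replicate 10), and the count lower was 6, and 4 to 7 without single libraries. At 6 h the count lower, 4, became 8 with the experiment covariate. In differentiated cells at 3 h the counts higher and lower, 0 and 0, became 5 and 2 with that covariate, and 0 to 1 were higher without single libraries (1 on leaving out stretched replicate 8). At 6 h the count higher, 1, was 0 with all 24 libraries, 2 with the covariate and 0 to 2 without single libraries (0 on leaving out non-stretched replicate 7 or 8 or stretched replicate 9 or 10, 2 on leaving out non-stretched replicate 9). The count lower, 7, was 4 with all 24 libraries and 4 to 8 without single libraries (4 on leaving out non-stretched replicate 8). With the study's fold limit of 0.58 every count of collagen genes changed by stretching was 0, except 1 lower in differentiated cells at 6 h. For the stretch effect between stages, DESeq2 called 1 higher at 1 h and 1 lower at 6 h, where edgeR called 0. Leaving out single libraries was not run there. The causes were not tested.

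Same-numbered libraries of a stage shared an experiment, and the labels tie them no further. The correlation of their deviations from the group means was -0.175 to 0.366, above 0 in 19 of 23 pairs and above 0.1 for every pair in 0 of the 6 stretch comparisons. With the replicate block, 7 members were lower in myoblasts at 6 h, 5 were higher and 1 lower in differentiated cells at 3 h, and 2 were higher there at 6 h. Between the stages the block left 23 higher and 7 lower. For the stretch effect between stages, a block within stage called 2 members higher at 1 h, 3 at 3 h and 3 at 6 h, and 2 lower at 6 h. The 3 at 6 h include Col26a1, which was not tested in myoblasts. The report gives the shares of all genes called in these fits, and between the stages they were 45.1% higher and 44.4% lower.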
